A study of Mus musculus with 28 samples.

Results

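Tenm1, Negr1, Csmd2, Gpr158, Ptprr, Zdhhc21 and Dzip3 are 7 brain-expressed genes whose 3' tags stood out as higher in treated double knockout brains. They were selected on the fitted change in their counts in double knockout mice given a progranulin vector against double knockout mice given saline, where they rose most clearly. They make up 7 of the 53801 genes in the table and 7 of the 11123 with enough counts to be fitted. All 7 were found, and all 7 passed the filter on low counts. The difference that chose them is therefore given below as a description, and so is their spread inside groups, which enters the p-value that ranked them. The choice did not use the wildtype treatment comparison, the difference between the sexes or the gene models.

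RNA was measured in 1 hemibrain of each of 28 mice, 7 in each of 4 groups. DKO AAV mice lacked Grn and Tmem106b and received AAV(L):bPGRN, a liver-targeting adeno-associated virus. It codes for human progranulin joined to the 8D3 antibody fragment (scFv), which recognises transferrin receptor of the mouse. DKO saline mice carried the same double knockout and received isotonic saline. WT AAV mice were wildtype and received the vector, and WT saline mice were wildtype and received saline. All were C57Bl/6J mice injected into the tail vein at 6 weeks, with 1.3e+13 vector genomes per kg where the vector was given. They were perfused 9 to 10 weeks later, at 15 to 16 weeks of age, and the hemibrain was taken with its cerebellum but no olfactory bulb. Each DKO group held 4 females and 3 males and each WT group 3 females and 4 males. Every group had at least 1 mouse in each of the 4 batches that the labels name.

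Tenm1, Negr1 and Csmd2 encode proteins of the neuronal surface. Tenm1 encodes teneurin-1, a transmembrane protein of synapses whose family binds latrophilins on the opposite cell. Negr1 encodes a glycolipid-anchored adhesion molecule of the IgLON family that bears on neurite growth, and Csmd2 encodes a large transmembrane protein with CUB and sushi domains found at synapses. Gpr158 encodes an orphan class C receptor that brings RGS7, a regulator of G protein signalling, to the membrane. Ptprr encodes a tyrosine phosphatase that binds and dephosphorylates the MAP kinase ERK. Zdhhc21 encodes a DHHC enzyme, which attaches palmitate to proteins, and Dzip3 encodes a RING-type E3 ubiquitin ligase. Zdhhc21 and Dzip3 are expressed outside neurons as well, and a whole hemibrain cannot assign a transcript to a cell type, so the genes are called by their names here.

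The gene models of these transcripts were long. On GRCm38, Tenm1 (ENSMUSG00000016150) lies at chrX:42527866-43429126 on the minus strand, Negr1 (ENSMUSG00000040037) at chr3:156561794-157316445 on the plus strand, and Csmd2 (ENSMUSG00000028804) at chr4:127987857-128567656 on the plus strand. Gpr158 (ENSMUSG00000045967) lies at chr2:21367542-21830547 on the plus strand and Ptprr (ENSMUSG00000020151) at chr10:116018213-116274932 on the plus strand. Zdhhc21 (ENSMUSG00000028403) at chr4:82798738-82859958 and Dzip3 (ENSMUSG00000064061) at chr16:48924232-48994165 are both on the minus strand. Their genomic spans ran from 61.2 kb for Zdhhc21 to 901 kb for Tenm1, with a median of 463 kb, against a median of 26.1 kb over the 11123 genes tested. Tenm1, Negr1, Csmd2, Gpr158 and Ptprr were each longer than at least 95.2% of the genes tested. For comparison, the median span was 121 kb over the 91 genes that passed as higher in DKO AAV than DKO saline, a count that includes these 7, and 13.8 kb over the 245 that passed as lower. Tags were read near 3' ends, and the one other gene within reach of a 3' end was Sh2d1a, on the strand opposite Tenm1, with 3 counts over all 28 libraries.

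RefSeq start-site windows (GRCm38.p6, 250 bases before to 50 after each start) were held for 6 of the 7 genes, as 10 windows. Zdhhc21 and Ptprr were picked for display because their treated and saline knockout libraries did not overlap, in the comparison that chose the genes. How many of all genes show this was not counted. The windows shown for them are that of Zdhhc21 and the first of 4 of Ptprr, at the start of its gene model. The Tenm1 window is shown as well, since it had the lowest share of G and C of the 10. All are written 5' to 3' on the gene's strand. Capitals mark matches to the GC box, the TATA box and the CCAAT box, searched on both strands, so that a match on the opposite strand appears as its reverse complement.
Ptprr, chr10:116018113-116018412, plus strand: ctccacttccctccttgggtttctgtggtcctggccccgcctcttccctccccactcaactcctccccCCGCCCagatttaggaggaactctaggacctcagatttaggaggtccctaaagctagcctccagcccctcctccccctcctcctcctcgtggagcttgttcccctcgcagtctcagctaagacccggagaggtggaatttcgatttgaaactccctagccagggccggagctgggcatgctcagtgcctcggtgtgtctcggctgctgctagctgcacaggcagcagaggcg
Zdhhc21, chr4:82859624-82859923, minus strand: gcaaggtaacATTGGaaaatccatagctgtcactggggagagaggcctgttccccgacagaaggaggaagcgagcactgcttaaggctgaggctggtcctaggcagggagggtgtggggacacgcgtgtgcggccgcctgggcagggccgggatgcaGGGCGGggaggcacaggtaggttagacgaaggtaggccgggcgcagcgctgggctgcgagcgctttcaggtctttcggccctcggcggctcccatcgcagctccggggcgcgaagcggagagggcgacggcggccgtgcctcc
Tenm1, chrX:43274735-43275034, minus strand: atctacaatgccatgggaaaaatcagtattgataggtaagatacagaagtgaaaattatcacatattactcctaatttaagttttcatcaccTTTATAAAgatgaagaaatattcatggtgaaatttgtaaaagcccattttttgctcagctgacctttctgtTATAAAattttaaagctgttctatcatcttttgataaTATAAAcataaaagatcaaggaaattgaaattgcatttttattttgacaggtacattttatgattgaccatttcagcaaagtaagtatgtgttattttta
The Zdhhc21 window had 67.7% G and C, the first Ptprr window 61.3% and the Tenm1 window 27%, against a median of 52.7% over 32851 windows. The other 3 Ptprr windows, at starts inside the gene, had 41%, 41% and 46.7% and held none of the 3 boxes. The Tenm1 window belongs to a RefSeq start inside the gene, downstream of the start of the deposited gene model. The GC box, GGGCGG, was found in 4 of the 10 windows (1 each of Gpr158, Negr1, Ptprr and Zdhhc21) and in 35.7% of all windows. The TATA box, TATAAA, was found in 1 of the 10, that of Tenm1, in 4 matches of which the first pair overlap on opposite strands, and in 13.6% of all windows. The CCAAT box, CCAAT, was found in 3 of the 10, those of Zdhhc21 and Dzip3, and in 37.4% of all windows. No match was found in these windows, on either strand, for CACGTG (7.15% of all windows), TGACG (20.8%), TGACGTCA (1.79%) or TGACTCA (5.20%).

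Total counts per library ran from 1164637 to 2389815. The 7 genes had 6 to 200 counts per library, and 164 of their 196 values were below 100, where the rounding of the deposited counts does nothing. Tmem106b, one of the deleted genes, averaged 9.63 ± 2.18 CPM (counts scaled to library size with TMM factors; SD, n = 7 mice here and below) in DKO AAV, 12.8 ± 4.77 in DKO saline, 121 ± 17.5 in WT AAV and 119 ± 23.1 in WT saline. The DKO libraries had at most 20.1 CPM of Tmem106b and the WT libraries at least 75.6. Grn, the other deleted gene, averaged 126 ± 27.9 CPM in DKO AAV, 192 ± 66.7 in DKO saline, 175 ± 32.5 in WT AAV and 181 ± 73.9 in WT saline, so its tags did not separate the genotypes. The labels do not name the deleted stretch of Grn, and whether the tags lie outside it was not tested. Marker lists of cell types and regions set some libraries apart. DKO saline replicate 2 had an excitatory neuron score of -1.27 and a striatal score of -1.48, where a score is the mean log2 CPM of a marker list less its mean in WT saline, and it also had the highest total count. WT AAV replicate 7 and WT saline replicate 6 were low in cerebellar markers. With libraries of high olfactory bulb score or many Prl and Gh counts added, 11 libraries were atypical in regional content, of which 0 were DKO AAV, 4 DKO saline, 4 WT AAV and 3 WT saline. The olfactory bulb cut of 0.75 fell close to some libraries. DKO AAV replicates 1 and 2 (0.68 and 0.74) and WT AAV replicate 2 (0.73) were just under it. WT AAV replicates 3 and 5 (both 0.76) were just above it. Values without DKO saline replicate 2 and without all 11 are given after the values of the groups.

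In DKO AAV brains every one of the 7 genes had a higher mean than in each of the other 3 groups, and the DKO AAV libraries all lay above the DKO saline median of each gene. The fitted levels were 1.35 to 1.79 times those in DKO saline. These are the values that chose the genes, so no test is given for them. How many of all genes had no overlap between DKO AAV and DKO saline was not counted. A lack of overlap below is therefore only a description. All 7 passed the threshold of adjusted p 0.05 used over all genes, as the choice required, where 0.818% of genes passed as higher and 3.02% in either direction. In bulk tissue, fewer cells of a type and less RNA per cell cannot be told apart.

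**Figure D1:**
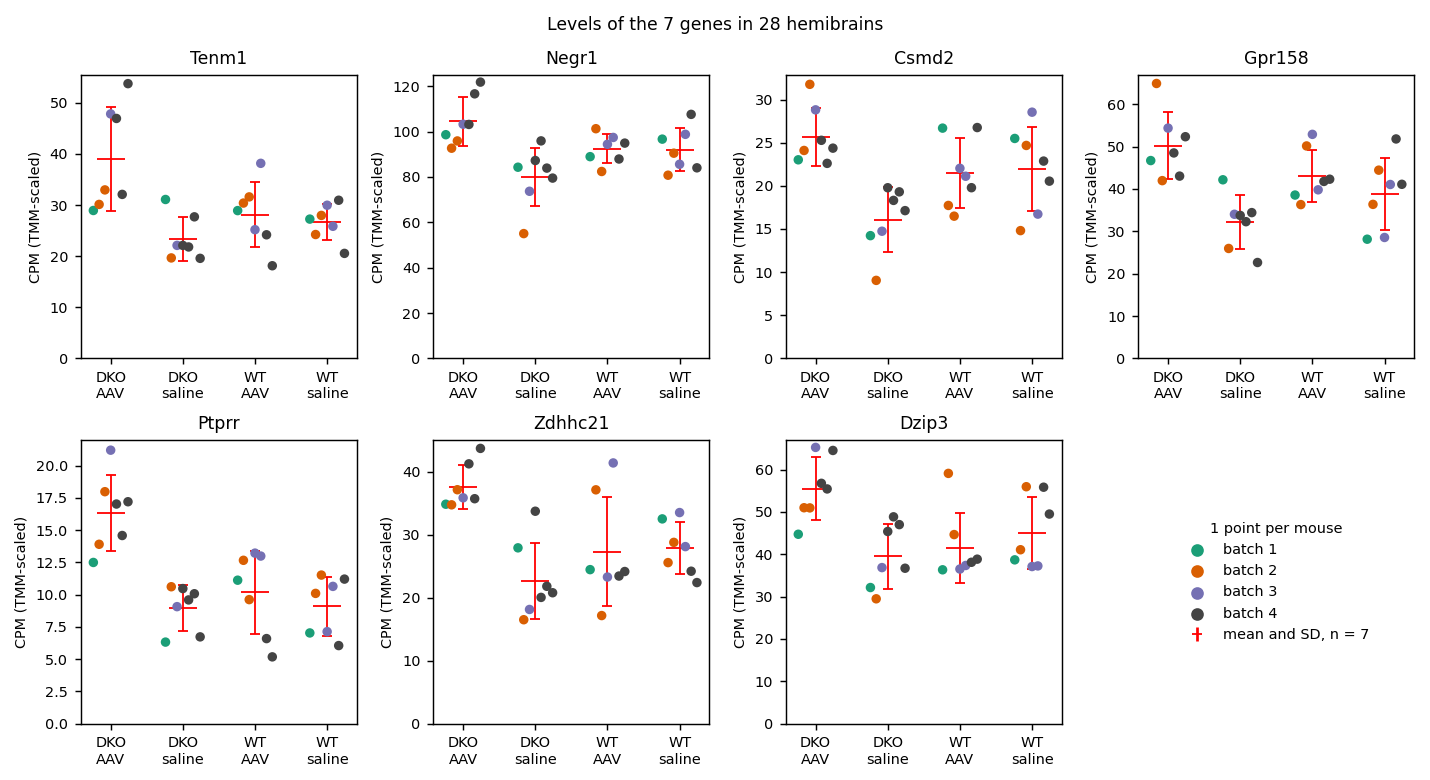
CPM of each gene in each mouse (1 point per mouse, colour by batch), with the mean and SD of each group of 7 in red, groups from left to right DKO AAV, DKO saline, WT AAV and WT saline. The DKO AAV and DKO saline points are separate for Csmd2, Ptprr and Zdhhc21 and overlap for Tenm1, Negr1, Gpr158 and Dzip3. How many of all genes are separate in this way was not counted.

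Among the surface proteins, Tenm1 had 28.9, 33.0 and 53.8 CPM as the lowest, median and highest DKO AAV library, against 19.6, 22.1 and 31.1 in DKO saline. In WT AAV brains the same 3 values were 18.1, 28.9 and 38.2 CPM, and in WT saline brains 20.5, 27.2 and 30.9. The DKO AAV libraries split into 3 at 46.9 to 53.8 CPM, all from batches 3 and 4, and 4 at 28.9 to 33.0, which lie within or close to the wildtype range. The fitted difference from DKO saline was 0.75 ± 0.15 on the log2 scale (SE), or 1.68-fold with a 95% interval of 1.35 to 2.08.

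Negr1 had 92.7, 103 and 122 CPM in DKO AAV, against 55.0, 83.9 and 95.9 in DKO saline. Its values were 82.4, 94.4 and 101 CPM in WT AAV and 80.8, 90.5 and 108 in WT saline. It had the smallest fold of the 7, at 1.35 (1.19 to 1.54), and also the smallest spread inside groups, with a pooled SD of 0.17 in log2 CPM. The low value of 55.0 CPM was DKO saline replicate 2, and the other 6 DKO saline libraries began at 73.7 CPM.

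Csmd2 had 22.6, 24.4 and 31.8 CPM in DKO AAV, against 9.04, 17.1 and 19.8 in DKO saline, with no overlap. In WT AAV it had 16.5, 21.1 and 26.8 CPM and in WT saline 14.8, 22.9 and 28.5, so that both wildtype groups spanned most of the distance between the knockout groups. The fitted difference between DKO AAV and DKO saline was 0.77 ± 0.16 on the log2 scale, or 1.70-fold (1.36 to 2.13). The lowest library was again DKO saline replicate 2, and the next was at 14.2 CPM.

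Gpr158, the receptor of the group, had 42.0, 48.5 and 64.9 CPM in DKO AAV, against 22.6, 33.7 and 42.2 in DKO saline. The single overlap was a DKO AAV library at 42.0 CPM below a DKO saline library at 42.2. WT AAV libraries lay at 36.3, 41.8 and 52.9 CPM and WT saline libraries at 28.1, 41.0 and 51.8. The fitted difference was 0.65 ± 0.14 on the log2 scale, or 1.57-fold (1.29 to 1.92).

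Of the enzymes, Ptprr had 12.5, 17.0 and 21.2 CPM in DKO AAV, against 6.32, 9.59 and 10.6 in DKO saline. WT AAV brains had 5.18, 11.1 and 13.2 CPM and WT saline brains 6.05, 10.1 and 11.5. All 7 DKO AAV libraries were above all DKO saline and all WT saline libraries, and 6 of 7 were above all WT AAV libraries. The fold of 1.79 (1.40 to 2.29) against DKO saline was the highest of the 7, on counts of 6 to 39 per library.

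Zdhhc21 had 34.8, 35.9 and 43.7 CPM in DKO AAV, against 16.5, 20.8 and 33.7 in DKO saline, 17.2, 24.2 and 41.4 in WT AAV and 22.4, 28.1 and 33.5 in WT saline. The DKO AAV libraries lay above every DKO saline and WT saline library, though the gap to the highest DKO saline library was small. WT AAV was the most spread group, at 27.3 ± 8.63 CPM, beside 37.6 ± 3.49 in DKO AAV. The fitted difference from DKO saline was 0.74 ± 0.16 on the log2 scale, or 1.68-fold (1.34 to 2.10).

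Dzip3 had 44.7, 55.4 and 65.2 CPM in DKO AAV, against 29.5, 36.8 and 48.8 in DKO saline. It had 36.3, 38.1 and 59.1 CPM in WT AAV and 37.1, 41.1 and 55.9 in WT saline, so the top of each wildtype group reached into the DKO AAV range. The fitted difference was 0.54 ± 0.12 on the log2 scale, or 1.45-fold (1.23 to 1.71). By p-value Dzip3 was the lowest ranked of the 7. The ranking kept genes higher in DKO AAV with a mean of at least 5 CPM, and left out Gm, RP, AC and Rik symbols. In that ranking the gene just outside the 7 was Vldlr, which encodes a lipoprotein and reelin receptor, at 0.57 ± 0.12. Scn1a, which encodes a neuronal sodium channel and is not among the 7, ranked between Csmd2 and Negr1 at 1.15 ± 0.24.

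Whether wildtype levels were regained was read from both knockout groups against WT saline. In DKO saline brains the fitted values of 6 of the 7 genes were lower than in WT saline and that of Ptprr was not, but 5 of the 7 intervals included 0. The fitted log2 differences were -0.52 ± 0.17 for Csmd2, -0.31 ± 0.17 for Zdhhc21, -0.27 ± 0.15 for Gpr158, -0.27 ± 0.10 for Negr1, -0.24 ± 0.13 for Dzip3, -0.18 ± 0.17 for Tenm1 and 0.09 ± 0.20 for Ptprr. The 95% intervals lay below 0 for Csmd2 and Negr1, and included 0 for the other 5. With adjustment over all genes, 0 of the 7 passed, where 6.9% of genes passed in either direction. Without the 11 atypical libraries Csmd2 was -0.22 ± 0.28, Negr1 -0.19 ± 0.14, Gpr158 0.33 ± 0.21 and Dzip3 0.03 ± 0.20, and with library totals in place of TMM factors Negr1 was -0.16 ± 0.10. Without batch 4 Csmd2 was -0.86. With the share of mitochondrially encoded counts as a term Gpr158 was -0.69 ± 0.27, Zdhhc21 0.17 ± 0.31 and Ptprr 0.72 ± 0.37. That share itself went with genotype, with means of 9.16% in DKO AAV, 8.66% in DKO saline, 10.8% in WT AAV and 11.1% in WT saline. With this term, the share and genotype therefore cannot be fully told apart, and the SEs were wider. This comparison shares its DKO saline libraries with the one that chose the genes, so a low set of DKO saline values would enter both, and the values are a description.

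In DKO AAV brains the fitted values of all 7 genes were above WT saline, with 95% intervals that included 0 for Csmd2 and Negr1. The DKO AAV libraries, whose high values chose the genes, enter this comparison too, so it is a description. The fitted log2 differences were 0.93 ± 0.19 for Ptprr, 0.56 ± 0.16 for Tenm1, 0.44 ± 0.16 for Zdhhc21, 0.38 ± 0.14 for Gpr158, 0.30 ± 0.12 for Dzip3, 0.24 ± 0.16 for Csmd2 and 0.16 ± 0.09 for Negr1. The 95% intervals lay above 0 for Ptprr, Tenm1, Zdhhc21, Gpr158 and Dzip3. For Csmd2 they ran from 0.946-fold to 1.48-fold and for Negr1 from 0.984-fold to 1.28-fold, so both intervals included the wildtype level. Without the 11 atypical libraries Zdhhc21 was 0.26 ± 0.17 and Gpr158 0.70 ± 0.16, and with the mitochondrial share as a term Gpr158 was 0.07 ± 0.22, Zdhhc21 0.79 ± 0.25 and Ptprr 1.41 ± 0.29. Ptprr and Tenm1 passed with adjustment over all genes, where 1.43% of genes passed as higher and 5.25% in either direction, and nothing is read from that count because the DKO AAV libraries also chose the genes. Csmd2, which stood lowest in DKO saline, and Negr1 came nearest to WT saline in DKO AAV. Ptprr, whose fitted value was not lower in DKO saline, was the farthest above WT saline. In this fit, DKO AAV against WT saline is the sum of DKO AAV against DKO saline and DKO saline against WT saline. This order is therefore tied to the DKO saline values and is not a separate result.

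Other genes differed between the knockout groups and WT saline as well. Of 8 mitochondrially encoded genes tested, 7 passed as lower in DKO AAV and 7 in DKO saline, beside 3.82% and 3.27% of all genes. Their median log2 differences were -0.47 and -0.57. Of 12 microglial markers 1 passed as higher in DKO AAV and 9 in DKO saline, beside 1.43% and 3.62% of all genes. Their medians were 0.30 and 0.89, and 10 of the 12 were above 0 in each group. Of 5 reactive astrocyte markers tested 3 passed as higher in DKO AAV and 5 in DKO saline. Their medians were 0.99 and 2.29, with 4 and 5 of them above 0. The part of the microglial and astrocyte differences in those of the 7 genes was not tested.

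**Figure D2:**
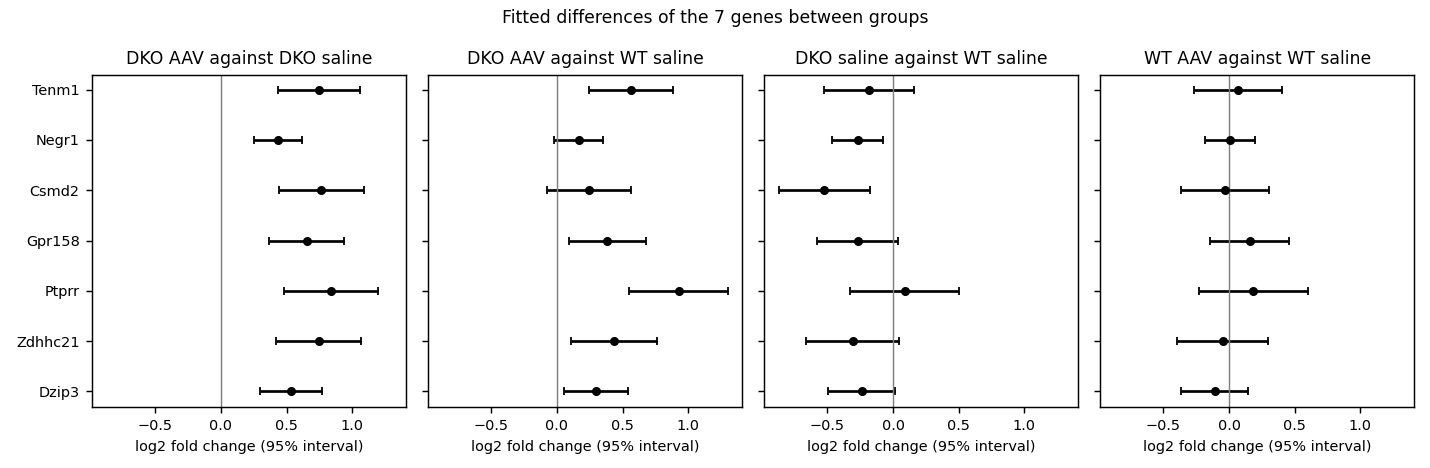
Fitted log2 fold change of each gene with its 95% interval, from left to right DKO AAV against DKO saline, DKO AAV against WT saline, DKO saline against WT saline and WT AAV against WT saline, and 0 marked by a line. All 7 lie above 0 in the first and second panels, 6 of 7 below 0 in the third, and both sides of 0 in the fourth.

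In wildtype mice the vector was followed by no detectable difference in any of the 7 genes, in the treatment comparison that the choice did not use. The log2 differences between WT AAV and WT saline were 0.18 ± 0.20 for Ptprr, 0.16 ± 0.15 for Gpr158, 0.07 ± 0.17 for Tenm1, 0.01 ± 0.09 for Negr1, -0.03 ± 0.17 for Csmd2, -0.05 ± 0.17 for Zdhhc21 and -0.11 ± 0.12 for Dzip3. By edgeR's quasi-likelihood test the p-values ran from 0.293 to 0.936, and every adjusted p was 0.9997. Of the 7, 0 passed, where 0.0% of all genes did. An unadjusted p under 0.05 was reached by 254 of the 11123 genes in edgeR, 136 in DESeq2 and 303 in limma, and DESeq2 and limma likewise called 0 genes. The 95% intervals of the 7 genes lay between 0.760-fold and 1.52-fold. The treatment difference in DKO mice less that in WT mice was 0.80 ± 0.23 for Csmd2, 0.79 ± 0.23 for Zdhhc21, 0.68 ± 0.23 for Tenm1, 0.65 ± 0.27 for Ptprr, 0.65 ± 0.17 for Dzip3, 0.50 ± 0.20 for Gpr158 and 0.43 ± 0.13 for Negr1. That difference of differences was not tested, because the DKO libraries in it chose the genes.

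Sex made no detectable difference either. Tenm1, which lies on the X chromosome, averaged 28.8 ± 9.16 CPM in 14 females and 29.7 ± 8.35 in 14 males, a fitted log2 difference of -0.08 ± 0.12 (edgeR, p 0.486, adjusted p 0.9997). Over the 7 genes the log2 differences ran from -0.18 to 0.03 and the p-values from 0.123 to 0.998. Of the 7, 0 passed in edgeR, where 0.045% of genes did, 5 in all by edgeR and by DESeq2 and 4 by limma, with 447, 289 and 417 genes at an unadjusted p under 0.05 in edgeR, DESeq2 and limma.

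Within batches the DKO AAV mean was above the DKO saline mean for all 7 genes in batches 2, 3 and 4, and for 6 in batch 1. The exception was Tenm1 in batch 1, with 28.9 CPM in the DKO AAV mouse and 31.1 in the DKO saline mouse, a difference in log2 CPM of -0.10. The median difference over the 7 genes was 0.31 in batch 1 (1 DKO AAV and 1 DKO saline mouse), 0.76 in batch 2 (2 and 1), 0.91 in batch 3 (1 and 1) and 0.63 in batch 4 (3 and 4). The largest single difference was that of Csmd2 in batch 2, at 1.48, where the DKO saline mouse was replicate 2. Against WT saline, the DKO AAV mean was higher for 6, 7, 7 and 7 genes in batches 1 to 4, with Csmd2 in batch 1 the exception at -0.14. The DKO saline mean was above WT saline for 2, 0, 1 and 2 of the 7 genes in those batches. Between WT AAV and WT saline, 4, 5, 5 and 2 of the 7 were higher in WT AAV. Batches 1 and 3 hold 1 mouse on each side of the DKO comparison, so only batch 4 has replicates on both. In batches 1, 2 and 3 the DKO AAV and DKO saline mice were of opposite sex, and in batch 4 the DKO AAV mice were 15.5 weeks old and the DKO saline mice 16 weeks, so inside these batches treatment cannot be told apart from sex or age.

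**Figure D3:**
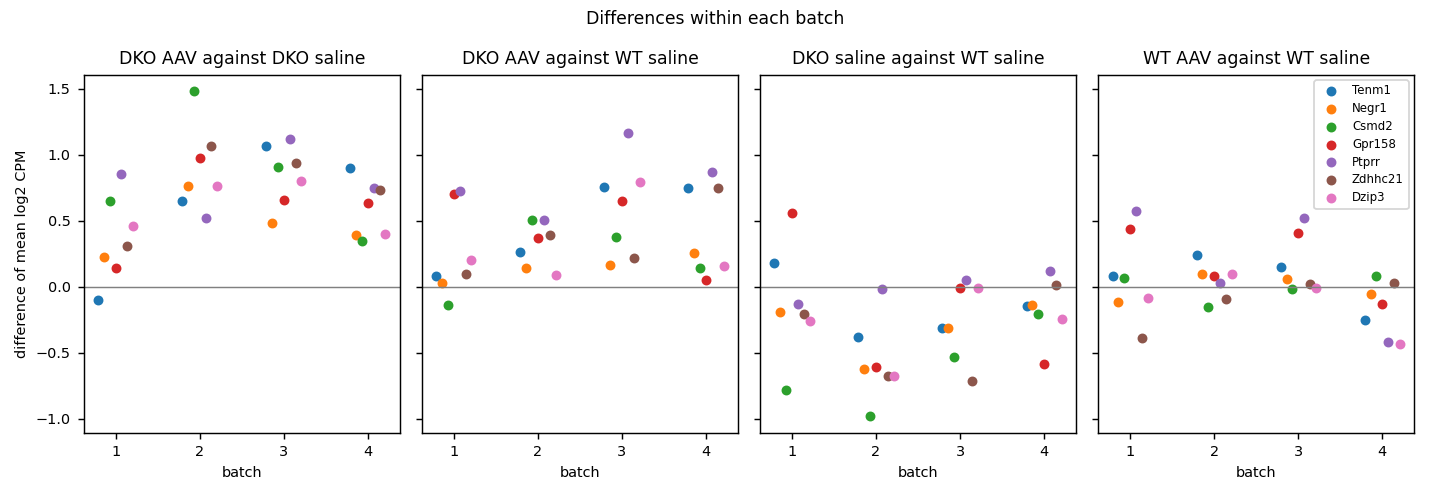
Difference of mean log2 CPM inside each batch (x axis) for each gene (colour), in 4 comparisons, with 0 marked by a line. In DKO AAV against DKO saline 27 of the 28 points lie above 0, the exception being Tenm1 in batch 1, and in WT AAV against WT saline the points lie on both sides.

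How far above DKO saline the 7 genes stood rested in part on particular libraries. Without DKO saline replicate 2, the log2 differences between DKO AAV and DKO saline ran from 0.36 for Negr1 to 0.85 for Ptprr. Their median was 0.63 in place of 0.74, and 2 of the 7 genes, Ptprr and Tenm1, stayed past the threshold. Over all genes 54 passed in either direction, in place of 336, so the loss of calls was not particular to the 7. Without the 11 libraries of atypical regional content, 7 DKO AAV and 3 DKO saline libraries were left. The differences of the 7 genes then ran from 0.35 for Negr1 to 0.78 for Ptprr with a median of 0.42. By edgeR 0 of the 7 passed, where 19 of all genes did. The genes that moved most in this setting were Gpr158, at 0.37 ± 0.16 in place of 0.65, and Zdhhc21, at 0.42 ± 0.17 in place of 0.74. Without batch 4 Csmd2 was at 1.18 in place of 0.77. Leaving out batches 1, 2, 3 and 4 in turn left 7, 0, 5 and 1 of the 7 past the threshold, with medians of 0.53 to 0.78. Over all genes 595, 23, 98 and 94 passed in those settings. All 7 differences were above 0 in each of 43 alternatives. Against WT saline without the 11 libraries, the median of the 7 was 0.43 in DKO AAV in place of 0.38, and -0.06 in DKO saline in place of -0.27.

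**Figure D4:**
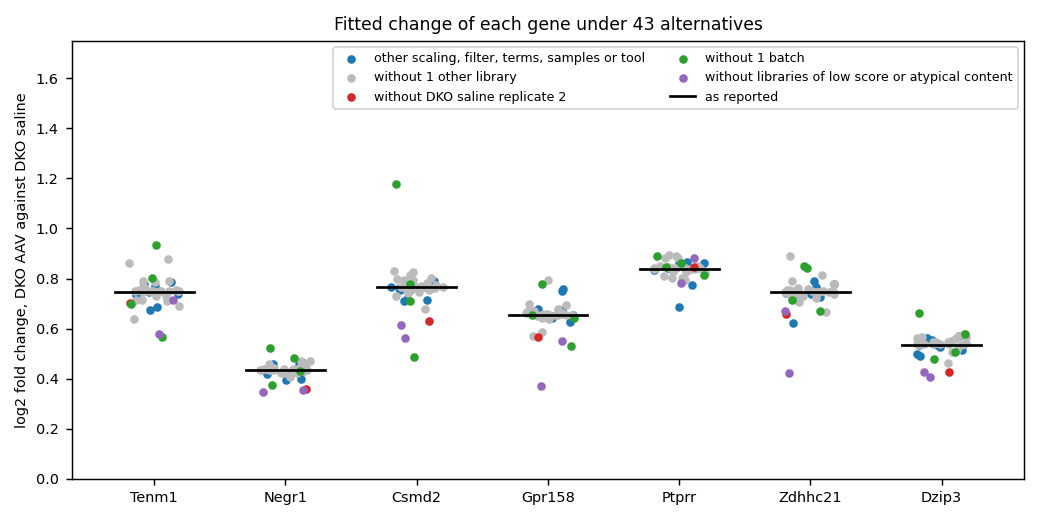
Fitted log2 fold change of each gene in DKO AAV against DKO saline as reported (black line) and under 43 alternatives (points, coloured by kind). All points lie above 0. Those without DKO saline replicate 2 (red) are below the black line for every gene but Ptprr, and those without libraries of low score or atypical content (purple) are among the lowest for Negr1, Gpr158, Zdhhc21 and Dzip3.

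Markers of cell types and regions moved in the same comparison. The 12 general neuron markers summed to 5557 to 6826 CPM in DKO AAV and 4828 to 6447 in DKO saline. Of the 12, 1 passed as higher, beside 0.818% of all genes. Of 9 striatal markers tested 0 passed, but all 9 were above 0 with a median log2 difference of 0.34, which was 0.13 without DKO saline replicate 2 and -0.09 without the 11 atypical libraries. All 10 cerebellar markers tested were above 0, with a median of 0.45 and 0 past the threshold, and that median was 0.55 with 1 past it without the 11 libraries. Without the libraries of low striatal or cerebellar score 4 of the 10 passed as higher, where 77 of all genes passed in either direction. Of 11 excitatory neuron markers 10 were above 0, with a median of 0.26 and 0 past the threshold. Of 12 microglial markers 8 passed as lower, and of 5 reactive astrocyte markers tested 4 passed as lower, beside 2.2% of all genes. Without DKO saline replicate 2 these counts were 5 and 3, and without the 11 libraries 3 and 3. Over all genes 54 and 19 passed in either direction in those settings. All 3 pituitary markers tested passed as lower, with a median of -5.64. The pituitary list summed to 0.717 to 83.9 CPM in DKO AAV (median 8.55) and 3.36 to 2353 in DKO saline (median 15.3). DKO saline replicate 3 had 3490 Prl and Gh counts, where the next highest library of that group had 65 and the highest in DKO AAV 161. The median of -5.64 thus rests largely on that library, and no value without it is given. None of these neuronal, striatal, cerebellar, pituitary, microglial or reactive astrocyte markers was at 0 in all 28 libraries. The part of tissue content in the differences of the 7 genes was not tested. RIN, a score of RNA integrity, ran from 8.3 to 9.7 in DKO AAV and 9 to 9.7 in DKO saline, and with RIN as a term the median difference of the 7 was 0.75.

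Inside groups the 7 genes varied together only in part. Log2 CPM was stripped of group, sex and batch, which removes the means that chose the genes, and the residuals were correlated over the 28 libraries. The 21 pairs had a median Pearson r of 0.28, from -0.18 for Zdhhc21 with Gpr158 to 0.70 for Negr1 with Dzip3. Against the mean of the other 6, r was 0.74 for Dzip3 (Spearman's rho 0.70), 0.67 for Negr1 (0.65), 0.52 for Tenm1 (0.53), 0.44 for Zdhhc21 (0.46), 0.27 for Ptprr (0.43), 0.20 for Csmd2 (0.21) and 0.12 for Gpr158 (0.08). Dzip3, Negr1 and Tenm1 thus went together from mouse to mouse, and Gpr158 and Csmd2 hardly with the rest. These are descriptions over libraries that share their depth and dissection, and carry no p.

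The markers with which each gene varied were not the same. Ptprr went with the cerebellar markers (r 0.70), Gpr158 with the striatal (0.68) and general neuron markers (0.50), and Zdhhc21 with the astrocyte (0.63) and mitochondrially encoded genes (0.70). WT saline replicate 6 and WT AAV replicate 7, with cerebellar scores of -2.42 and -1.64, had the lowest Ptprr of their groups. DKO saline replicate 2 had a striatal score of -1.48. The part of such single libraries in these correlations was not tested. Tenm1 and Dzip3 were lowest where microglial markers were high (r -0.61 and -0.54). The correlation with the general neuron list was negative for 6 of the 7, with the lowest value, -0.44, for Ptprr. The mean of the 7 went with striatal markers (0.55; rho 0.40), against microglial markers (-0.59; rho -0.51) and against total count (-0.49; rho -0.41).

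**Figure D5:**
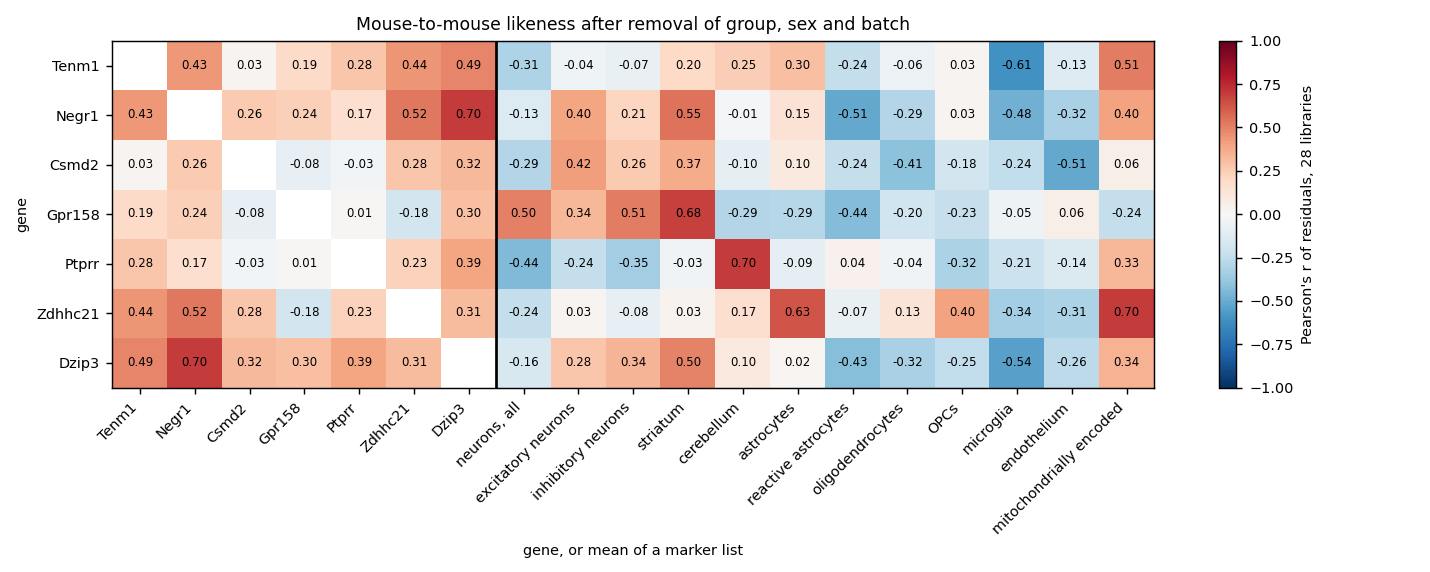
Pearson's r over 28 libraries of residual log2 CPM (group, sex and batch removed) between the 7 genes (left block) and between each gene and the mean of a marker list (right block), red positive and blue negative. Negr1 with Dzip3, Ptprr with cerebellum and Gpr158 with striatum stand at 0.70, 0.70 and 0.68, and microglial markers are negative with all 7.

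The genes outside the 7 whose residuals were most like their mean, among those with at least 5 CPM, were Atp2c1 (r 0.84), a Golgi calcium and manganese pump, and Scn2a1 (0.82), a neuronal sodium channel. They were followed by Pcmtd2, Vldlr, Kctd1, Zfp704, Atxn1, Ppp3ca, Chd9 and Sestd1, down to r 0.76. Between DKO AAV and DKO saline the fitted log2 differences of all 10 were above 0, beside a median of -0.002 over all genes tested. They were 0.57 ± 0.12 for Vldlr, 0.51 ± 0.12 for Scn2a1, 0.45 ± 0.19 for Atxn1, 0.44 ± 0.15 for Chd9, 0.40 ± 0.13 for Ppp3ca, which encodes a calcineurin catalytic subunit, 0.38 ± 0.13 for Pcmtd2, 0.32 ± 0.14 for Sestd1, 0.23 ± 0.13 for Kctd1, 0.07 ± 0.09 for Atp2c1 and 0.06 ± 0.13 for Zfp704. The order of likeness was not the order of these differences, since Atp2c1 was the most like the 7.

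Relatives and partners of the 7 proteins were read from 7 lists with 115 genes, of which 97 were tested. In DKO AAV against DKO saline 6 of the 97 passed as higher and 0 as lower, beside 0.818% and 2.2% of all genes. All 13 teneurins, latrophilins, FLRT and UNC5 genes in the teneurin list had differences above 0, with a median of 0.43 beside -0.002 over all genes tested. Without DKO saline replicate 2 the differences of 12 of the 13 were above 0 with a median of 0.39, and without the 11 atypical libraries those of 11, with a median of 0.18. Flrt1 (0.80 ± 0.22), Unc5c (0.60 ± 0.16) and Adgrl3 (0.57 ± 0.15), which encode a latrophilin ligand, a netrin receptor and latrophilin-3, passed with edgeR adjusted p-values of 0.0424, 0.0323 and 0.0280. Csmd1 (0.95 ± 0.26, adjusted p 0.0414), a close relative of Csmd2, Nrxn3 (0.47 ± 0.13, adjusted p 0.0351), a presynaptic neurexin, and Rgs7bp (0.41 ± 0.11, adjusted p 0.0401), a membrane anchor of RGS7, also rose by edgeR. Csmd1 averaged 8.63 ± 2.53 CPM in DKO AAV, 4.67 ± 1.502 in DKO saline, 3.95 ± 1.77 in WT AAV and 6.27 ± 2.29 in WT saline. Adgrl3 averaged 38.9 ± 4.70 CPM in DKO AAV, 26.3 ± 4.53 in DKO saline, 30.3 ± 9.10 in WT AAV and 32.5 ± 4.95 in WT saline. Without DKO saline replicate 2 the count was 0 of 97 by edgeR, with these 6 genes at log2 differences of 0.29 to 0.68. Over all genes 54 passed there in either direction, in place of 336. The count was 0 as well when DKO AAV replicate 5, DKO saline replicate 3 or 5, batch 2, 3 or 4, or the atypical libraries were left out. In those settings 114, 183, 216, 23, 98, 94 and 19 of all genes passed, in that order. Leaving out DKO AAV replicate 3, 4 or 7 gave 1 of the 97 each, beside 200, 169 and 179 of all genes. Leaving out DKO saline replicate 1, 6 or 7 gave 12, 10 and 3, beside 700, 352 and 217 of all genes.

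The phosphatase, acyltransferase and ubiquitin ligase lists held no gene that passed in that comparison, with medians of -0.01 over 8 genes, 0.05 over 25 and -0.004 over 13. The differences between Ptprr, Zdhhc21 and Dzip3 and these relatives were not tested. In DKO saline against WT saline 1 of the 97 passed as higher and 6 as lower, beside 3.62% and 3.27% of all genes. That count of 7 was 0 with the mitochondrial share, which itself went with genotype, as a term and 0 to 9 with 1 library left out. The libraries whose omission lowered it to 4 or fewer were DKO saline replicates 1, 2 and 3 (0, 3 and 4) and WT saline replicates 1, 2 and 3 (2, 3 and 4). Map2k1, which encodes the ERK kinase MEK1, rose by 0.38 (edgeR adjusted p 0.0172). Flrt1 fell by 0.78, the palmitoyl transferase genes Zdhhc8 and Zdhhc3 by 0.57 and 0.33, Dzip1, which encodes a zinc finger protein of cilia, by 0.48, the latrophilin gene Adgrl1 by 0.42 and Cntnap1, an adhesion gene of myelinated axons, by 0.41, with edgeR adjusted p-values of 0.0274 to 0.0414. In DKO AAV against WT saline 3 passed as higher and 4 as lower, beside 1.43% and 3.82% of all genes. This count of 7 was 0 with the mitochondrial share as a term and 1 to 12 with 1 library left out. It was 1 without DKO AAV replicate 4, 2 without WT saline replicate 1, 4 without DKO AAV replicate 2 or 5 or WT saline replicate 2, 3 or 4, and 12 without WT saline replicate 6. For either comparison with WT saline, calls over all genes in these settings were not set beside the counts. No change in the counts is therefore read as particular to the relatives. Map2k1 (0.50), the axonal adhesion gene Cntnap2 (0.47) and Neto2 (0.39), which encodes an auxiliary subunit of kainate receptors, rose. Dzip1 (-0.53), Sez6 (-0.51), a seizure-related sushi domain gene, Abhd17a (-0.36), which encodes a depalmitoylating enzyme, and the phosphatase gene Dusp3 (-0.32) fell, with edgeR adjusted p-values of 0.0016 to 0.0428. In WT AAV against WT saline 0 of the 97 passed by edgeR. Map2k1 averaged 244 ± 30.6 CPM in DKO AAV, 222 ± 37.3 in DKO saline, 186 ± 9.03 in WT AAV and 173 ± 20.7 in WT saline, so both knockout groups were high whatever the treatment. Dzip1, related to Dzip3 in name, averaged 48.7 ± 8.35, 51.0 ± 10.6, 66.2 ± 10.5 and 70.4 ± 13.8 CPM in the groups in that order, so that DKO AAV was below WT saline for Dzip1 and above it for Dzip3.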

How the data were processed

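Labels gave genotype, treatment, sex, batch, age and RIN. Per the labels' protocols, libraries were QuantSeq 3' mRNA FWD libraries with unique molecular identifiers. The submitters' processing notes name STAR, build GRCm38.p6, edgeR 3.40.2, R 4.2, FastQC 0.11.5 and MultiQC 1.0. Neither the counting program nor its strand setting is given in the sources used here. In the file, the deposited counts per gene are rounded to at most 2 significant digits in 100.0% of the 472191 values above 0, which alters only values of 100 or more (16.9% of those values). The authors' deposited normalized CPM is a signal scaled by library size and was used in 1 alternative. The deposited sample sheet was not used.

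In R 4.3.3, edgeR 4.0.16 fitted the deposited counts of the 28 libraries (1164637 to 2389815 per library) with TMM scaling, filterByExpr (minimum count 10, total 15), and group, sex and batch in a quasi-likelihood model, with Benjamini-Hochberg adjustment over 11123 genes. The common biological coefficient of variation was 13.6%. SE is the absolute log2 fold change over the square root of F. Intervals are 95%. Replicate numbers follow accession order and pair nothing, and replicates are separate mice. Residual correlations used log2 CPM with a prior count of 2. Alternatives used library totals, DESeq2 1.42.0 size factors and test, limma 3.58.1 on log2(CPM + 1), other terms, filters and samples, and left out each library, batch and the libraries of regional scores below -1, of olfactory bulb scores above 0.75 or of more than 500 Prl and Gh counts. Left-out libraries for the family lists were added after seeing the data. The fit was tested on simulated counts before use.

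The members and all lists were chosen with earlier results of these data known. Named genes are the 7, listed relatives past the threshold, the 10 genes most like the 7 and the genes ranked next to them. Promoter windows are from RefSeq (GRCm38.p6), matched by symbol. Symbols came from the deposited table, with 2 brought up to date by identifier.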

Additional observations from a re-analysis of the deposited data

Results flagged for a closer look

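Of the 28 combinations of the 7 genes with the 4 groups, 1 held a library far from the others. Dzip3 stood at 59.1 CPM in WT AAV replicate 2, where the other 6 WT AAV libraries lay between 36.3 and 44.6 CPM. About 1 in 20 such groups is marked by chance. With all 7 libraries the log2 difference of Dzip3 between WT AAV and WT saline was -0.11 ± 0.12, so the high library did not put WT AAV above WT saline.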

How the results depend on the processing

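No paired analysis was possible because the replicate numbers only follow the order of the samples, and batch is already a term. In DKO AAV against DKO saline, the 7 genes stayed above 0 in 43 of 43 alternatives, and their median of 0.74 was 0.53 without batch 2 and 0.42 without the atypical libraries, the cause not tested. DESeq2 gave adjusted p-values for 6 of the 7, all past the threshold, and NA for Ptprr, where 339 of all genes passed. The same libraries chose the genes, so these directions and calls are descriptions and no separate support. The median in DKO saline against WT saline was -0.080 with the mitochondrial share as a term, -0.12 without libraries of low striatal or cerebellar score and -0.058 without the atypical libraries. The mitochondrial share itself went with genotype. Library totals in place of TMM shifted the median of all genes by 0.11 in DKO saline and 0.14 in DKO AAV against WT saline, and the 7 kept their directions. The calls of 0 in WT AAV against WT saline and between the sexes held in every alternative.

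Values near 0 changed sign. In WT AAV against WT saline, without batch 2, Tenm1 was -0.017, Csmd2 0.025 and Negr1 -0.030, and without batch 3 Negr1 was -0.013. Zdhhc21 was 0.027 without batch 1, and Dzip3 0.0087 without batch 4. Without the atypical libraries Csmd2 was 0.077 and Dzip3 0.15. With 1 library left out, Tenm1 ran from -0.015 to 0.15, Csmd2 from -0.10 to 0.051, Negr1 from -0.042 to 0.042 and Zdhhc21 from -0.18 to 0.036. Between females and males Tenm1 was 0.012 without batch 2, 0.033 without batch 4 and 0.018 without the atypical libraries.

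The counts of relatives and partners called depended most on the setting, and the causes were not tested. In DKO AAV against DKO saline (6 of 97, beside 336 of all genes) the count was 13 with no filter on low counts and with only the compared groups, beside 710 and 627. It was 2 with the mitochondrial share as a term, beside 339, and 3 with limma, beside 204. Without batches 1, 2, 3 and 4 it was 10, 0, 0 and 0, beside 595, 23, 98 and 94. It was 0 without libraries of low score or of atypical content, beside 77 and 19, and 0 to 12 with 1 library left out, beside 54 to 700. For the comparisons with WT saline, calls over all genes were not set beside the counts. In DKO saline against WT saline (7) it was 3 without sex and batch terms and with limma, 0 with the mitochondrial term, 1 with only the compared groups, 1, 2, 3 and 12 without batches 1, 2, 3 and 4, and 0 to 9 with 1 library left out. In DKO AAV against WT saline (7) it was 18 with library totals, 3 without sex and batch terms, 2 with RIN, 0 with the mitochondrial term, 3, 2 and 1 without batches 1, 2 and 3, 17 and 18 without libraries of low score and of atypical content, and 1 to 12 with 1 library left out. Ptprr rests on counts of 6 to 39 per library.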
